A study of Mus musculus with 8 samples.

Results

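Genes for 10 enzymes that convert androgens and corticosteroids within tissues were followed in the mouse seminal vesicle: Srd5a1, Srd5a2, Srd5a3, Hsd17b4, Hsd17b10, Hsd17b11, Hsd17b12, Hsd11b1, Hsd11b2 and Cyp19a1. They were chosen by symbol alone, and 9 of the 10 had a row among the 17258 genes of the table. Cyp19a1, which encodes the aromatase that turns androgens into oestrogens, had no row, so its level was not analysed here. Levels of the other 9 spanned from 3.1 to 883 normalised reads per kilobase in control tissue, and none of them passed the fold used here between acrylamide and control.

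Steroid hormones are remade inside their target tissues. Steroid 5-alpha reductases turn testosterone into dihydrotestosterone, the stronger androgen on which growth and secretion of the seminal vesicle depend, while 17-beta-hydroxysteroid dehydrogenases interconvert active 17-beta-hydroxy and weaker 17-keto steroids. The 11-beta-hydroxysteroid dehydrogenases work in opposite directions on glucocorticoids, with Hsd11b1 regenerating corticosterone and Hsd11b2 inactivating it. Several enzymes that carry these family names have their main known work in lipid metabolism.

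The animals were male outbred Swiss mice of 8 to 12 weeks. The control group of 4 mice received vehicle (phosphate buffered saline) by intraperitoneal injection, and the acrylamide group of 4 mice received 25 mg/kg acrylamide, a reproductive toxicant found in heated food and smoke, on 5 consecutive days. Both groups were collected 72 h after the last injection. Whole seminal vesicle tissue was sequenced as poly(A) RNA in reads of 100 bp, with a minimum of 67 M raw reads per library, so that fewer cells of a type and less RNA per cell cannot be told apart.

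The table holds 1 value per gene and group, in reads divided by size factors, a scale on which libraries of different depth are comparable, and not divided by gene length. Averaged over both groups, it equals the mean over the 8 libraries, and the printed digits allowed the whole reads of each library to be worked out for 5891 of 6178 genes with a sum of normalised reads of up to 300, which is 34.1% of all genes. Srd5a1, Srd5a2, Hsd11b1 and Hsd11b2 are among them. The other 5 enzymes are too abundant for this, so their ratio of group values carries no error and no test. Libraries were numbered within a group by falling size factor and could not be matched to single mice. The control size factors ran from 0.886 to 1.02 and those of acrylamide from 1.03 to 1.11. Normalised reads of the resolved genes summed to 39074 to 41111 in a control library and to 42649 to 51736 in an acrylamide library, highest in acrylamide library 1. Nothing in the labels names a shared batch. All 10 listed markers of seminal vesicle secretory epithelium were present, and their summed value was 0.851 times the control value in acrylamide, against 1.24 times for 8 smooth muscle markers, 1.18 for 8 fibroblast markers, 1.17 for 8 macrophage markers and 0.903 for 8 prostate markers. Most of the prostate sum was Tgm4, with 31429 in control and 28432 in acrylamide tissue. Pbsn had 12107 and 10922. The paper describes Tgm4 as highly abundant in the seminal vesicle as well. The prostate sum is therefore no separate reading of prostate tissue. The part of these marker shifts in the values that follow was not tested.

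The 17-beta-hydroxysteroid dehydrogenases were the most abundant of the enzymes. Divided by the length of the longest annotated transcript, Hsd17b11 had 883 normalised reads per kilobase in control tissue, Hsd17b10 549, Hsd17b12 298 and Hsd17b4 173. Together they made 94.5% of the summed level of the 9 enzymes in control and 93.7% in acrylamide tissue. The 3 steroid 5-alpha reductases summed to 95.8 normalised reads per kilobase in control and 95.9 in acrylamide tissue, most of it Srd5a3 with 73.8 and 72. The pair of 11-beta-hydroxysteroid dehydrogenases summed to 15.5 and 14.9. Among all genes, without division by length, Hsd17b11 ranked 641 in control tissue and Hsd11b2 ranked 13606. The step from Srd5a3 to Srd5a2, from 73.8 to 14 per kilobase, separates the abundant from the low enzymes in the plot of levels.

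**Figure D1:**
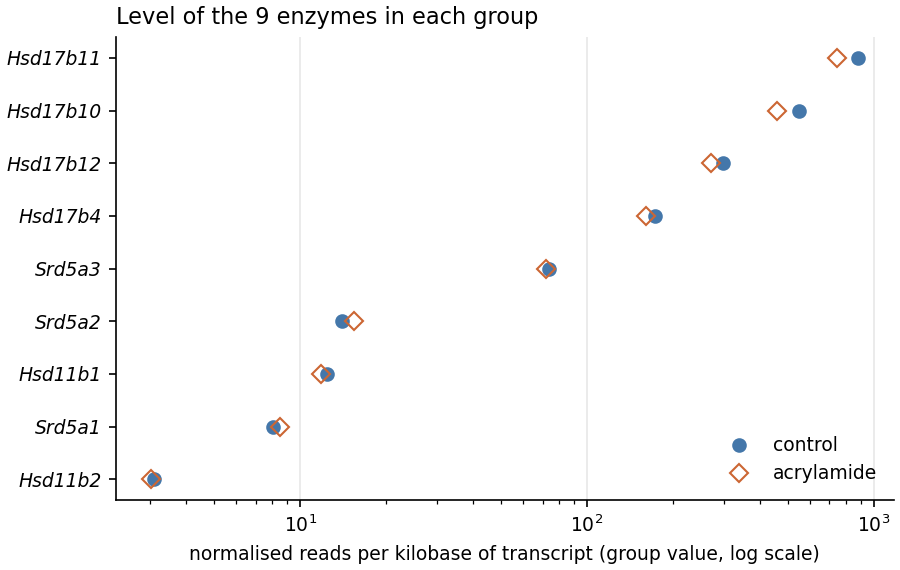
Level of the 9 enzymes with a row, in normalised reads per kilobase of the longest transcript (log axis). Circles stand for the control and diamonds for the acrylamide group value, each 1 value for 4 libraries without an error. Hsd17b11 is highest at 883 and Hsd11b2 lowest at 3.1 in control tissue.

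The order depends in places on the length used. With the median transcript length, Hsd17b4 moved from the 4th to the 2nd place, since its longest transcript has 2684 bases and the median of its 4 transcripts is 585, and Srd5a1 moved from the 8th to the 6th. Among the 4 enzymes with reads per library, Srd5a2 was above Hsd11b1 per kilobase in 7 of 8 libraries and above Srd5a1 in 8 of 8. Hsd11b1 was above Srd5a1 in 7 of 8 libraries, and Hsd11b2 was the lowest in 8 of 8. The library ranges of neighbours overlapped: in control tissue Srd5a2 ran from 12.8 to 14.8 per kilobase, Hsd11b1 from 7.93 to 18.3 and Srd5a1 from 6.27 to 10, while Hsd11b2 stayed at or below 4.26. The order of Srd5a2, Hsd11b1 and Srd5a1 turned around with the median transcript length. No spread is known for the order of the 5 abundant enzymes.

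None of the 9 enzymes was higher in acrylamide by the fold of 1.5, which 8.26% of the 15345 genes with a mean of at least 1 reached, and none was lower by the fold of 0.67, which 3.56% reached. On the log2 scale the ratios ran from -0.25 for Hsd17b11 and Hsd17b10 to 0.14 for Srd5a2, with a median of -0.07 beside 0.01 for all genes. As deposited, 7 of the 9 ratios were below 0, beside 48.6% of the 15345 genes. But 2 of 9 were when the groups were scaled to equal totals over all genes, which moved the median of all genes to 0.18. That scaling also changed the genes past the fold from 1268 higher and 547 lower to 1977 and 386. The deposited totals were 30956651 in control and 27433231 in acrylamide, and most of that gap lies in the Svs secretory genes: without them, equal totals shifted ratios by 0.06.

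**Figure D2:**
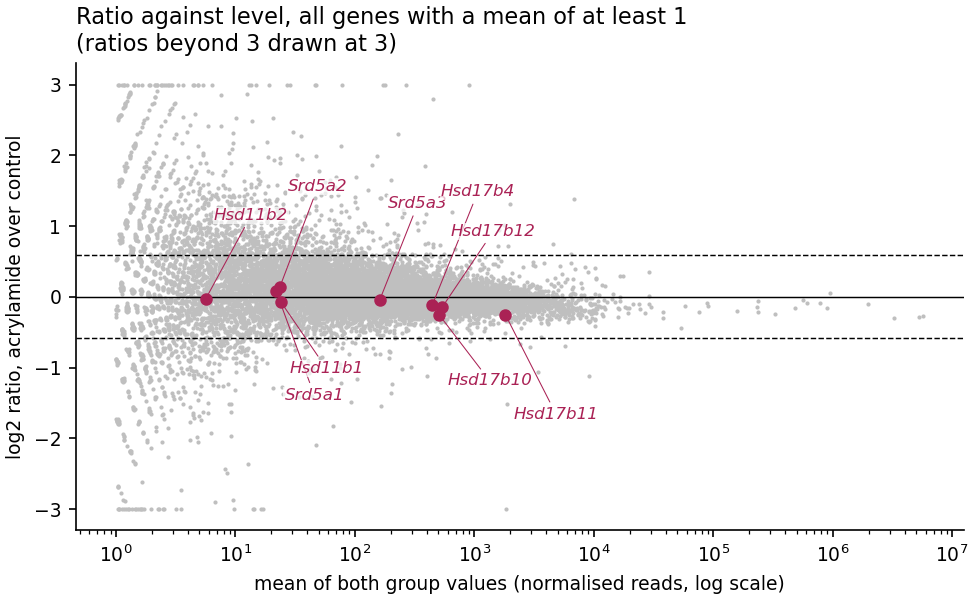
Log2 ratio of the acrylamide over the control group value against the mean of both (log axis) for 15345 genes, with the 9 enzymes named. Dashed lines mark folds of 1.5 and 0.67, and no enzyme lies outside them. The ratios of the enzymes run from -0.25 to 0.14.

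Hsd17b11 encodes a short-chain dehydrogenase of lipid droplets that can oxidise androstanediols, and lies on chromosome 5 from 103989765 to 104021796 (GRCm38, the build also called mm10). Its group value was 1972 in control and 1662 in acrylamide tissue, a ratio of 0.843. Hsd17b10 encodes a mitochondrial enzyme of isoleucine breakdown that is also a subunit of mitochondrial RNase P, and lies on chromosome X from 152001896 to 152004442. Its values were 549.9 and 461, a ratio of 0.839. These are the lowest ratios of the enzymes: 5.23% of the 8932 genes with a mean of at least 100 had a ratio as low as that of Hsd17b11, and 4.8% had one as low as that of Hsd17b10. With equal totals the log2 ratios of both were -0.07 and -0.08, still below 0.

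Hsd17b12 encodes the 3-ketoacyl-CoA reductase of very long chain fatty acid elongation, which can also reduce oestrone, and lies on chromosome 2 from 94032697 to 94157909. Its values were 567 in control and 516 in acrylamide tissue. The log2 ratio of -0.14 became 0.04 with equal totals. Hsd17b4 encodes the peroxisomal D-bifunctional protein, which shortens very long and branched fatty acids and oxidises oestradiol, and lies on chromosome 18 from 50128201 to 50196270, where it overlaps the annotated genes Cd63-ps and Gm33376. Its values were 463 and 429.7. The log2 ratio of -0.11 became 0.07 with equal totals, and 26.5% of genes with a mean of at least 100 had one as low. The 5 enzymes with a mean of at least 100 had a median log2 ratio of -0.14, beside -0.02 for all 8932 such genes, of which 56.1% were below 0.

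None of the 3 steroid 5-alpha reductases passed the fold. Srd5a3 lies on chromosome 5 from 76140273 to 76155503 and encodes the polyprenol reductase that makes dolichol for N-glycosylation. Its group values of 164 and 159.7 gave a log2 ratio of -0.04, which became 0.14 with equal totals. Srd5a1 on chromosome 13 (69573449 to 69611485) and Srd5a2 on chromosome 17 (74014891 to 74047860) encode the enzymes that make dihydrotestosterone, Srd5a2 being the form known from male accessory glands.

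Srd5a1 had 26.5, 16.6, 20.6 and 21.4 normalised reads in control libraries 1 to 4 and 23.3, 23, 23.4 and 20.5 in acrylamide libraries 1 to 4. The control range of 16.6 to 26.5 held all 4 acrylamide libraries. The means were 21.3 ± 4.06 and 22.5 ± 1.39 (SD, n = 4 each), and the difference of 0.10 on the log2(normalised reads + 1) scale had p = 0.6 in an exact two-sided permutation test over the 70 divisions of the libraries. Benjamini-Hochberg adjustment over the 3978 genes with reads per library and a mean of at least 1 gave 0.948. Summed over libraries, 81 control and 96 acrylamide reads gave a ratio of 1.06 with an exact 95% counting interval of 0.778 to 1.44.

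Srd5a2 had 21.6, 23.8, 20.6 and 23.7 normalised reads in the control and 17.1, 33.1, 23.4 and 25.3 in the acrylamide libraries. Acrylamide library 1 lay below the whole control range of 20.6 to 23.8, libraries 2 and 4 lay above it, and library 3 lay inside it. The means were 22.4 ± 1.6 and 24.7 ± 6.61 (SD, n = 4 each), with a difference of 0.10 on the log2 scale and an exact permutation p of 0.657 (adjusted 0.949 over the same 3978 genes). The ratio of summed reads was 1.1, with an interval of 0.82 to 1.48. The share of Srd5a2 in the level per kilobase of Srd5a1 and Srd5a2 was 63.6% ± 5.4 in control and 63.6% ± 6.84 in acrylamide libraries (SD, n = 4 each).

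**Figure D3:**
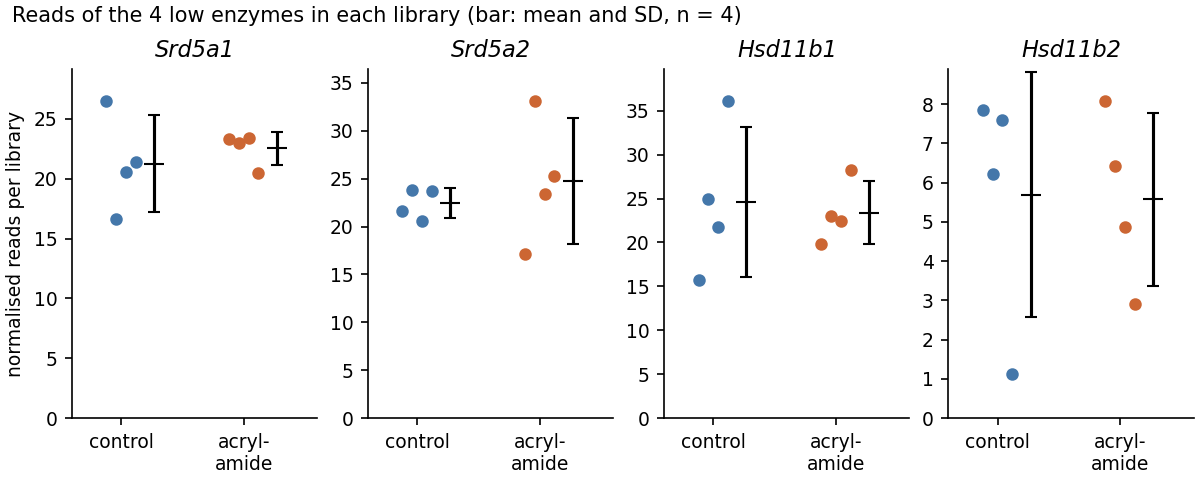
Normalised reads of Srd5a1, Srd5a2, Hsd11b1 and Hsd11b2 in each of the 4 control and 4 acrylamide libraries (points, in the order of their numbers), with the mean and SD. The groups overlap in all 4 panels, and control library 4 holds the highest Hsd11b1 value, 36.1, and the lowest Hsd11b2 value, 1.13.

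The 11-beta-hydroxysteroid dehydrogenases varied more between the libraries of a group than between the groups. Hsd11b1 lies on chromosome 1 from 193221640 to 193264045. It had 15.7, 24.9, 21.7 and 36.1 normalised reads in the control and 19.8, 23, 22.4 and 28.3 in the acrylamide libraries. Control library 4 was highest and control library 1 lowest, and the acrylamide libraries fell between them. The means were 24.6 ± 8.58 and 23.3 ± 3.57 (SD, n = 4 each), with a difference of -0.02 on the log2 scale, an exact permutation p of 0.971 and an adjusted p of 1. The ratio of summed reads was 0.96, with an interval of 0.715 to 1.29.

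Hsd11b2 lies on chromosome 8 from 105518746 to 105523988. It had 7.84, 6.22, 7.59 and 1.13 normalised reads in the control and 8.08, 6.43, 4.87 and 2.92 in the acrylamide libraries, from 22 and 24 reads in all. The library with the lowest value of each group was again library 4, that with the smallest size factor. The means were 5.69 ± 3.13 and 5.58 ± 2.2 (SD, n = 4 each), with a difference of 0.10 on the log2 scale, an exact permutation p of 0.83 and an adjusted p of 0.983. At this depth the interval of 0.523 to 1.82 for the ratio of summed reads does not show the groups to be alike. Across the 4 enzymes with reads per library, 0 had groups that did not overlap, beside 2.64% of the 3978 genes tested that did not overlap and were higher in acrylamide and 1.51% that were lower. The smallest p this design allows is 0.0286, reached by 165 genes, and the smallest adjusted p over all of them was 0.689. Over all 3978 genes the median difference was 0.15, somewhat above the differences of -0.02 to 0.10 of the 4 enzymes. When reads were scaled to the summed reads of all 5891 resolved genes, the 105 higher and 60 lower genes became 57 and 103.

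Across the 8 libraries of both groups, Hsd11b1 and Hsd11b2 ran in opposite directions. In the control group the library order of Hsd11b1 was the exact reverse of that of Hsd11b2, and in both groups library 4 held the highest Hsd11b1 and the lowest Hsd11b2 value. On the log2(normalised reads + 1) scale Pearson's r was -0.89 (p = 0.00141, adjusted 0.00707) and Spearman's rho was -0.90 (p = 0.00456, adjusted 0.0228), each by an exact two-sided permutation test over all pairings, with adjustment over the 10 relations computed. Without the 2 libraries farthest from the median of Hsd11b1, r was -0.86 (exact p = 0.0264), and without control library 4 alone it was -0.76. The share of Hsd11b1 in the level per kilobase of the pair ran from 65% to 96.7% in control and from 69.5% to 90.0% in acrylamide libraries, with means of 78.3% ± 13.5 and 79.3% ± 8.57 (SD, n = 4 each). Groups of 4 hold too few libraries for a value within each group. The adjusted p covers the 10 relations computed and no pairs of other genes. How many other pairs of low genes are as closely related was not computed. Hsd11b2 had 1 to 9 reads per library, so counting error is large in its values.

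A sum of low-level markers of fat cells moved with these values. The summed reads of 7 of 8 listed adipocyte markers with reads per library (Adipoq, Lep, Plin1, Cidec, Cfd, Fabp4 and Pck1) were 32.3, 66.3, 36.9 and 152 in control libraries 1 to 4 and 38.6, 72.6, 50.6 and 70.2 in the acrylamide libraries. Cfd and Fabp4 make most of the sum, while Adipoq, which marks fat cells, was at 0 in 3 libraries and at 12.4 in control library 4. Pck1 had 1.13 there and was highest in acrylamide library 3, at 4.87. The listed marker left out, Lipe, is too abundant for reads per library. It had 340.4 in control and 375 in acrylamide tissue, most of the 412 and 433 of the whole list. The sum of the 7 markers was related to Hsd11b1 with r = 0.93 (exact permutation p = 0.000446, adjusted 0.00446) and rho = 0.90 (p = 0.00456, adjusted 0.0228). Without the 2 libraries farthest from the median sum, r was 0.78 with an exact p of 0.0681, and without control library 4 it was 0.84. The sum was related to Hsd11b2 with r = -0.88 (exact permutation p = 0.00563, adjusted 0.0188) and rho = -0.76 (p = 0.0368, adjusted 0.0919). Without its 2 farthest libraries r was -0.60 (exact permutation p = 0.201), so this relation was weaker without them. Without control library 4 alone r was -0.66. The relations with the adipocyte sum were computed after the values per library had been seen, and the part of fat cells in the levels of either gene was not tested. Of the other 7 relations, none had an adjusted p under 0.05 by either measure, that of the adipocyte sum with Srd5a2 being the nearest with rho = 0.76 (exact permutation p = 0.0368, adjusted 0.0919). Its r was 0.51 over the 8 libraries (exact p = 0.182) and 0.84 without the 2 libraries farthest from the median sum (exact p = 0.00833).

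**Figure D4:**
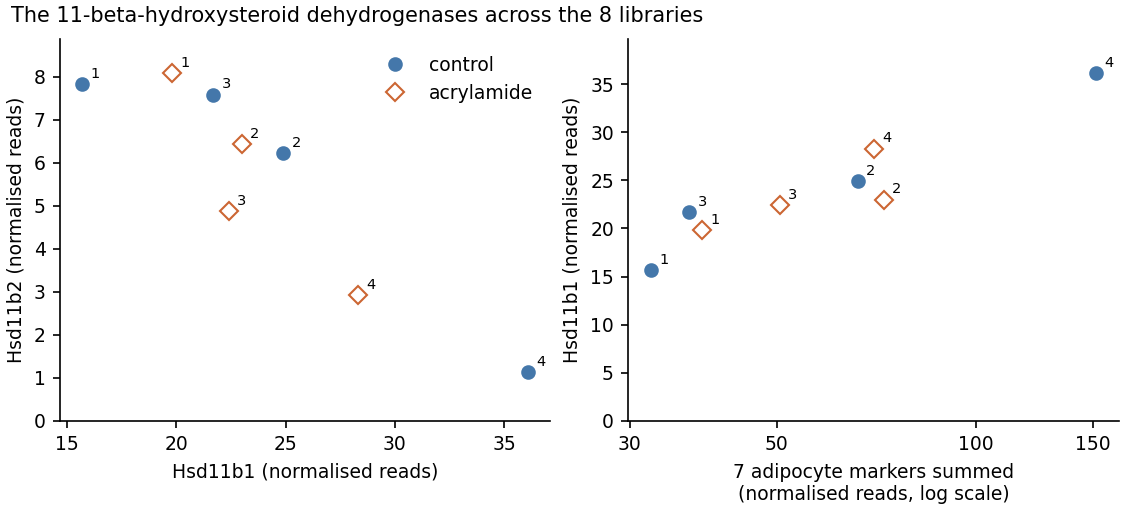
Left, Hsd11b2 against Hsd11b1, and right, Hsd11b1 against the summed level of 7 adipocyte markers (log axis), in normalised reads in each of 8 libraries, whose numbers within the group stand beside the points. Control library 4, with 36.1 for Hsd11b1, 1.13 for Hsd11b2 and 152 for the marker sum, lies at the end of both panels.

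The ratio of variance to mean within groups ran from 0.42 to 1.8 among the 4 low enzymes. It rests on 4 libraries per group, and a difference between the enzymes was not tested. The variance of Srd5a1 within groups was 0.42 times its mean, and 3.12% of the 1536 genes within a 2-fold range of its level had a ratio as low. The ratio of variance to mean was 0.981 for Srd5a2, 1.3 for Hsd11b2 and 1.8 for Hsd11b1, the last near the middle of its 1416 genes of like level (45.6% as low or lower).

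The stretches before the start sites of 3 enzymes are printed to set their CpG content beside their levels: Hsd17b12 and Srd5a1 held as many CpG but differed widely in level, and Hsd11b1 held fewer. Each line has the 250 bases before a start site from RefSeq on GRCm38, 5' to 3' on the gene's strand, with every CpG in capitals. All 3 genes lie on the minus strand, with windows at chr2:94157910-94158159, chr13:69611464-69611713 and chr1:193242361-193242610. The Hsd11b1 window lies within the gene's span (193221640 to 193264045), before an inner start site. Those of Hsd17b12 and Srd5a1 lie at the 5' end of their genes, so the CpG numbers are not of like start sites.
Hsd17b12: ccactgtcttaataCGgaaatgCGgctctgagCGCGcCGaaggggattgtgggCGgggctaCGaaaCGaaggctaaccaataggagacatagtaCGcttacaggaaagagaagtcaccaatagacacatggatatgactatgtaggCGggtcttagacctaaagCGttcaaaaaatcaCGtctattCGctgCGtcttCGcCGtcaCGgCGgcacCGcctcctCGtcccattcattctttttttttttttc
Srd5a1: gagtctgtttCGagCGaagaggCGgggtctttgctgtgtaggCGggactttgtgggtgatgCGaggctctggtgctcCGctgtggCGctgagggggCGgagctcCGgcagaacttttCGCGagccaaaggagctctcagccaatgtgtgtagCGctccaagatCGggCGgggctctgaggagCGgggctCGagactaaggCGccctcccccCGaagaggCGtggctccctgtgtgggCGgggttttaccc
Hsd11b1: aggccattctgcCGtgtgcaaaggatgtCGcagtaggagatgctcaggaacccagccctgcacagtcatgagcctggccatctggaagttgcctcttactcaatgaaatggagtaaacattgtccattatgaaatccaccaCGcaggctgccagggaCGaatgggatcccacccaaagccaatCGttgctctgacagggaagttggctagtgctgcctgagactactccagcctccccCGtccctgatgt

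In these windows Hsd17b12 and Srd5a1 each had 20 CpG, which 17.9% of the 32851 windows reached, and Hsd11b1 had 6, the median of all windows. The level per kilobase was 298 for Hsd17b12 and 8.05 for Srd5a1 in control tissue, so an equal number of CpG went with a wide gap in level, and Hsd11b1 with 6 CpG was at 12.4. Of the others, Srd5a3 had 19, Hsd17b11 13, Srd5a2 12 and Hsd17b10 12, and Cyp19a1 had 6, 3 and 2 at its 3 start sites. The letters AGAACA, a half-site of glucocorticoid receptor motifs, were found on neither strand in the windows of the 8 enzymes with one, beside 16.1% of all windows that hold them.

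Among the remaining genes of steroid conversion, those past the fold had few reads, except Papss2. Of 10 other listed 17-beta-hydroxysteroid dehydrogenases, 6 had a row and 3 a mean of at least 1. Hsd17b1, which makes oestradiol from oestrone, was the gene among them past the fold. It had 3, 1, 1 and 2 reads in the control and 4, 7, 7 and 7 in the acrylamide libraries, or 1.83 ± 0.931 and 5.92 ± 1.56 normalised reads (SD, n = 4 each), without overlap. The exact permutation p was 0.0286, the smallest possible, but adjusted over 3978 genes it was 0.689, and over the alternatives the p ran to 0.0571. The ratio of summed reads was 3.19, with an interval of 1.34 to 8.72. Hsd17b1 was singled out after its values were seen. Dhrs11, a dehydrogenase of the same class, had 217 and 194, and Hsd17b7, which also acts in cholesterol synthesis, had 28.5 and 39.3.

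Of 15 listed genes of steroid synthesis from cholesterol, 10 had a row. Cyp11a1, the cholesterol side-chain cleavage enzyme, was past the fold upward from 3 and 15 reads with overlapping groups (exact permutation p = 0.114, adjusted 0.773, n = 4 each). Hsd3b3 was past it downward from 9 and 4 reads (exact permutation p = 0.2, adjusted 0.793, n = 4 each). Markers of steroidogenic cells of testis and adrenal with reads per library were Cyp11a1, Cyp17a1 and Insl3. Their summed normalised reads ran from 6.86 to 10.8 in control and from 11 to 21.4 in acrylamide libraries. These ranges did not overlap but nearly met, and the sum was not tested. Of the 3978 single genes tested, 2.64% were higher without overlap. Each of the 3 genes alone overlapped: Cyp11a1 had 0 to 1.13 and 0.898 to 6.81, and Insl3 4.9 to 9.76 and 5.52 to 14.6. Cyp11a1 is part of the sum, so the sum is no separate reading beside it. The ratio of sums over the 5 of 8 such markers with a row was 1.18, from 508 and 599. Most of that sum and of its rise was Cyp21a1, whose reads are uncertain (below), while Star had 54.3 and 54.7. The part of such cells in the values of Cyp11a1 and Hsd17b1 was not tested. Stard3, a cholesterol carrier of late endosomes, had 632 and 537. Cyp21a1, the steroid 21-hydroxylase, had 445 and 529, but overlaps Tnxa and has a near-identical copy nearby, so its reads are uncertain. Akr1c12 was past the fold downward among 4 aldo-keto reductases with a row, from 9 and 2 reads (exact permutation p = 0.257, adjusted 0.835, n = 4 each). Akr1c13 had 8.83 and 9.59 and Akr1c14 4.27 and 3.71. Of 9 conjugation genes with a mean of at least 1, Papss2, which makes the sulphate donor for steroid sulphation, was past the fold with 44.9 and 71.8. Papss2 has 1 value per group without a test, and overlaps the annotated gene Gm36492. Ugt1a7c was also past the fold, with 12 and 32 reads and overlapping groups (exact permutation p = 0.0857, adjusted 0.773, n = 4 each). Its exons are partly shared with other Ugt1a genes. Papss1 had 1033 and 1068, and Sulf1 had 121 and 157.

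The counts of the lists tied to single enzymes are to be read beside the 8.26% of all genes past the fold upward and the 3.56% past it downward. Among partners of the redox step, which supply electrons or NADPH, 0 of 8 were past it, with 2564 and 2964 for Cyb5b and 1705 and 1641 for G6pdx. None of 14 peroxisomal beta-oxidation genes that work with Hsd17b4 was past it (median log2 ratio -0.04), with 26124 and 23109 for Phyh and 3200.2 and 3029.8 for Scp2. The 8 genes that work beside Hsd17b10 in mitochondrial RNA processing and amino acid breakdown had log2 ratios of -0.25 to -0.09 and a median of -0.11, all below 0 as deposited, though equal totals would add 0.17 to each. Acadsb had 1942 and 1816 and Hadh 837 and 776. Of 11 dolichol genes beside Srd5a3, 0 were past the fold (median -0.14), with 1293 and 1205 for Dpagt1, which starts N-glycan assembly on dolichol, and 804 and 729 for Alg5.

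Of 13 lipid droplet genes beside Hsd17b11, Plin2, the coat protein of lipid droplets, was past the fold upward with 46.4 and 107. Plin2 has 1 value per group without a test, and overlaps the annotated gene Gm12551. Plin5 was past the fold downward from 8 and 3 reads (exact permutation p = 0.229, adjusted 0.816, n = 4 each). Mettl7a1 had 1169.9 and 907, and Plin3 952 and 858. Of 13 elongation genes beside Hsd17b12, Elovl2 was past the fold downward from 10 and 5 reads (exact permutation p = 0.657, adjusted 0.949, n = 4 each). Hacd2 had 3903 and 3531 and Tecr 2157 and 2057. Hacd4 did not overlap between the groups (21 ± 1.37 and 28.5 ± 9.21 normalised reads, SD, n = 4 each, exact permutation p = 0.0286, adjusted 0.689) but its p ran up to 0.2 over the alternatives, and it overlaps Focad. Among 7 steroid receptors Esr2 was past the fold upward from 10 and 23 reads (exact permutation p = 0.0571, adjusted 0.748, n = 4 each). The glucocorticoid receptor gene Nr3c1 had 335 and 348. None of 10 receptor chaperones was past the fold, with 10146 and 9449.8 for Hsp90ab1 and 6659 and 6155 for Hspa8.

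**Figure D5:**
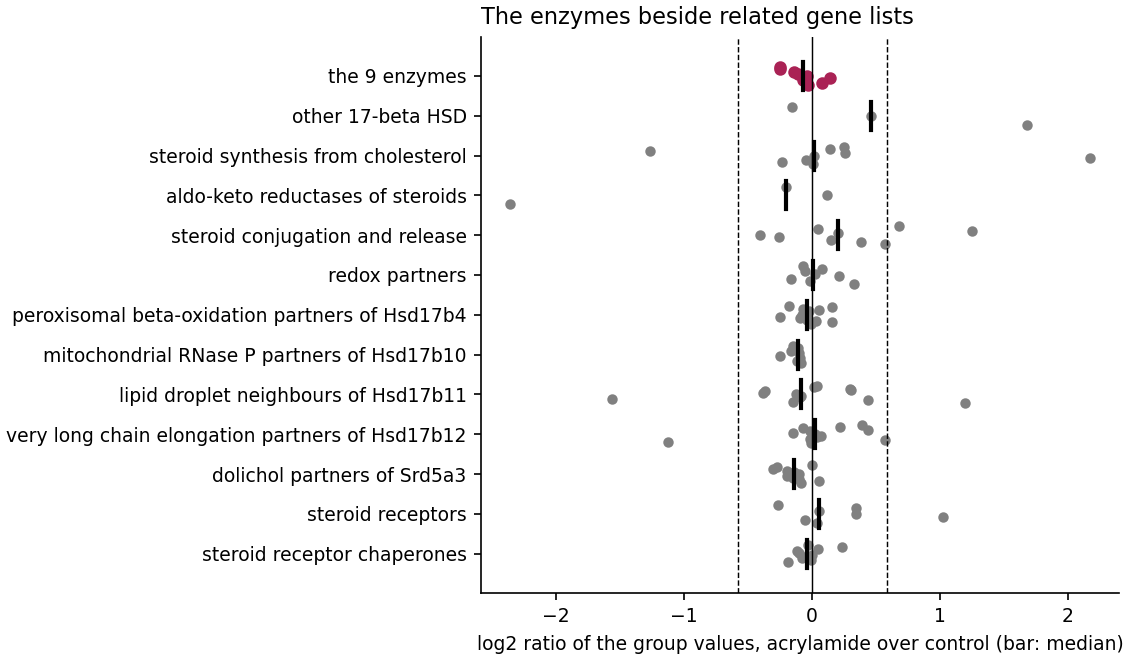
Log2 ratio of the acrylamide over the control group value for the 9 enzymes and for each gene with a mean of at least 1 in 12 related lists, with the median as a bar. Dashed lines mark folds of 1.5 and 0.67. The 9 enzymes run from -0.25 to 0.14 around a median of -0.07, and single genes of low level, such as Cyp11a1 at 2.17, lie far out.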

How the data were processed

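Poly(A) RNA of seminal vesicles from 4 control and 4 acrylamide mice was sequenced. Per the methods of the study, reads passed SOAPnuke and were aligned by the authors with Hisat2 (mm10), predicted genes were added with StringTie and Cuffcompare, and RSEM counts were normalised with DESeq2. Versions are not given in the sources used here. As deposited, the 2 columns used hold a signal, the authors' average normalised expression of each gene in a group. Columns of the authors' own comparison (log2 fold change, fold change, p, adjusted p and its -log10) were not used.

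The enzymes and lists were chosen with earlier results of these data known. Named genes are the 10 enzymes and, of each list, up to 4 past the fold with a mean of at least 10 and the 2 highest in control. Hsd17b1, Cyp11a1, Hsd3b3, Akr1c12, Ugt1a7c, Plin5, Elovl2, Hacd4 and Esr2 were added after their values were seen. One gene that this rule names is not reported here.

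Genes with 1 read in all give the value of 1 read in each of the 8 libraries. Whole reads were searched so that their normalised sum matched the mean of both group values to its printed digits. Where several solutions matched, the ratio of the group values chose between them. For Srd5a1, Srd5a2 and Hsd11b1 the sum had 2, 5 and 4 solutions in the range searched, of which 1 each matched the ratio, and for Hsd11b2 it had 1. The search was tested on simulated data, where all 618 genes with a sum of up to 150, 99 of 100 up to 200 and 49 of 78 up to 300 got reads, all of them right. Groups were compared by an exact two-sided permutation test on log2 values with a pseudocount of 1. Counting intervals are exact (Clopper-Pearson, 95%) and cover counting error only. Per the methods of the study, each library came from a different mouse. Other pseudocounts (0.5 and 5), scalings, filters and folds were tried, and each library was left out in turn.

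GENCODE vM21 gave transcript lengths, and RefSeq on GRCm38 gave positions and start-site windows. Windows were found for 8 of the 10 enzymes. The tools were scipy 1.17.1, numba 0.67.0, pandas 2.3.3, numpy 2.4.6 and matplotlib 3.10.9 under Python 3.11.15.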

Additional observations from a re-analysis of the deposited data

Results flagged for a closer look

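Srd5a1 in acrylamide libraries: library 4, at 20.5 normalised reads, stood apart from the other 3 at 23, 23.3 and 23.4, the gap being 0.87 of the whole range, above Dixon's 95% critical value for 4 samples. Of 8 groups of enzyme values tested this way it was the only one, and chance alone flags about 1 in 20. The reads behind these values were 26, 25, 24 and 21 in acrylamide libraries 1 to 4, a narrow range. The variance of Srd5a1 within groups was 0.42 times its mean, so the flag rests on the closeness of the other values.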

How the results depend on the processing

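None of the 9 enzymes passed the fold under any alternative run, and none of the 4 with reads per library separated the groups. Separation cannot be seen for the others, which have 1 value per group. With equal totals over all genes, 1977 genes were higher, the median log2 ratio of the enzymes was 0.11 and 2 of the 9 were below 0. Without the Svs genes in the totals that median was -0.01. Without a filter on the mean 1230 genes were lower, with a mean of at least 10 the counts were 540 higher and 125 lower, and at a log2 ratio of at least 0.32 in either direction they were 2495 and 1148. In reads per library, scaling to the summed reads of all 5891 resolved genes gave 57 higher and 103 lower genes, and a mean of at least 5 gave 22 lower. Leaving out 1 library gave 69 (without acrylamide library 1) to 142 higher and 37 (without control library 3) to 70 lower genes, and 38 lower without control library 2. Over the same alternatives the log2 difference ran from -0.08 to 0.20 for Srd5a1, -0.07 to 0.26 for Srd5a2, -0.21 to 0.18 for Hsd11b1 and -0.38 to 0.33 for Hsd11b2, with exact permutation p from 0.0857 to 1. Of 36 pairs of enzymes, 5 changed order with the median transcript length and 2 without division by length. The cause was not tested. No paired analysis was possible because the columns carry no replicate numbers and libraries are known only by size factor. By counting error alone, the 22 and 24 reads of Hsd11b2 limit it to differences of nearly 2-fold. The spread between its libraries is not part of that limit.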

Other observations

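Reads of Msmb and Crisp1, which mark neighbouring tissues, were uneven between libraries of 1 group. Msmb, a prostate secretory gene, had 90.0 normalised reads in control library 3 and 79.9 in acrylamide library 1, 25.3 in acrylamide library 3, and 0 to 1.96 in the other 5. Crisp1, an epididymal gene, had 14.1 in control library 3 and 0 in the other control libraries, and 0.898, 0, 0 and 3.9 in acrylamide libraries 1 to 4. The other listed markers of these tissues with reads per library did not follow them. Sbp of the prostate list was at 0 in control library 3 and highest in acrylamide library 2, at 5.52. Lcn8 had 1.13 in control library 4 alone, and Adam7 0.973 in acrylamide library 3 alone. The part of such tissues in any library was not tested.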
